A study of Mus musculus with 6 samples.

Results

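The genes described are 8 genes of lipid synthesis, taken by symbol from the deposited gene table: Srebf1 and Srebf2, which encode the SREBP transcription factors, the fatty acid enzymes Acly, Acaca, Fasn and Scd1, and the cholesterol enzymes Idi1 and Sqle. All 8 had exactly 1 row among the 52550 gene identifiers of the table, and the rule that picks them uses no measured value. Left ventricular RNA of C57BL/6J mice aged 12 months went into 6 libraries, of which 3 carry the label wild-type (WT) and 3 the label of PGC-1α overexpression (PKI). The labels name neither the construct nor its promoter, and nothing in them ties a library to its own animal; the p-values therefore reflect a spread among these 6 samples that may be technical. PGC-1α is a transcriptional coactivator of mitochondrial biogenesis and oxidative metabolism, and the design asks how the ventricular transcriptome differs between both labels.

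Fatty acids are built in the cytosol from citrate that leaves the mitochondria: ATP citrate lyase makes acetyl-CoA, acetyl-CoA carboxylase makes malonyl-CoA, and fatty acid synthase joins these units into palmitate, which elongases and desaturases then modify. Cholesterol is built from acetyl-CoA through mevalonate, isoprenoids and squalene. SREBP-1 is best known for activating the fatty acid genes and SREBP-2 for the cholesterol genes. Both are held in the endoplasmic reticulum until they are cut and released, so their mRNA level is not a measure of their activity. The adult heart burns far more fatty acid than it makes, and malonyl-CoA there is known mainly as a brake on fatty acid entry into mitochondria.

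The values were FPKM, fragments per length of transcript and per mapped total, which can be compared between genes because they are per length. Library totals were 708058 to 767757 FPKM, of which 81.8% to 82.3% in WT and 78.0% to 78.2% in the PKI-labelled libraries lay in mitochondrial genes and their near-identical nuclear copies. The steps between low values put the depth of the other libraries at 0.828 to 0.928 of that of WT replicate 1. All 8 cardiomyocyte markers had a mean of at least 1 FPKM, with a summed level of 9070 to 9894 FPKM in WT and 9693 to 10657 in the PKI-labelled libraries. Actc1, the most abundant, had a mean of 3691 FPKM in WT and 4599 in the PKI-labelled libraries. Of the 8, 2 were called higher and 2 lower as deposited, and 0 higher and 5 lower after scaling (calls and scaling are defined below). Ppargc1a, the gene of PGC-1α, was at 14.2, 12.8 and 12.4 FPKM in WT and at 11.6, 11.8 and 11.4 in the PKI-labelled libraries, every one below every WT value (limma, adjusted p = 0.0967 as deposited and 0.00521 after scaling, defined below), so the deposited values did not show the overexpression of the label. Higher and lower are used below for the PKI-labelled libraries relative to those labelled WT, whatever their Ppargc1a level. Testing used limma on log2(FPKM + 1) for genes whose mean reached 1 FPKM, and a gene was called at a Benjamini-Hochberg adjusted p under 0.05 over all 9907 tested genes. As deposited, 3609 genes were called higher and 293 lower, and the median log2 change of all tested genes was 0.21. After division by median-of-ratios size factors, which is called scaling below, the median was −0.02, with 775 genes higher and 909 lower.

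Fasn, Scd1 and Idi1 were higher in the PKI-labelled libraries by 1.59-fold to 1.70-fold as deposited, while Srebf1 and Srebf2, the regulators of these routes, were not. Of the 6 members that were tested, 3 were called higher and 0 lower, against 36.4% of all tested genes called higher and 2.96% called lower (39.4% in either direction). After scaling 0 were called higher and 1 was called lower, Srebf1, against 7.82% higher and 9.18% lower among all tested genes (17.0% in either direction). The median log2 change of the 6 was 0.30 as deposited and 0.10 after scaling, against 0.21 and −0.02 for all tested genes. Acaca and Sqle had means of 0.577 and 0.168 FPKM over the 6 libraries and were not tested; with every gene above 0 tested, 2 of the 8 members were called higher, Fasn and Idi1, against 11.1% of genes. All 8 genes were weakly expressed in this tissue, none above 5.28 FPKM in any library.

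**Figure D1:**
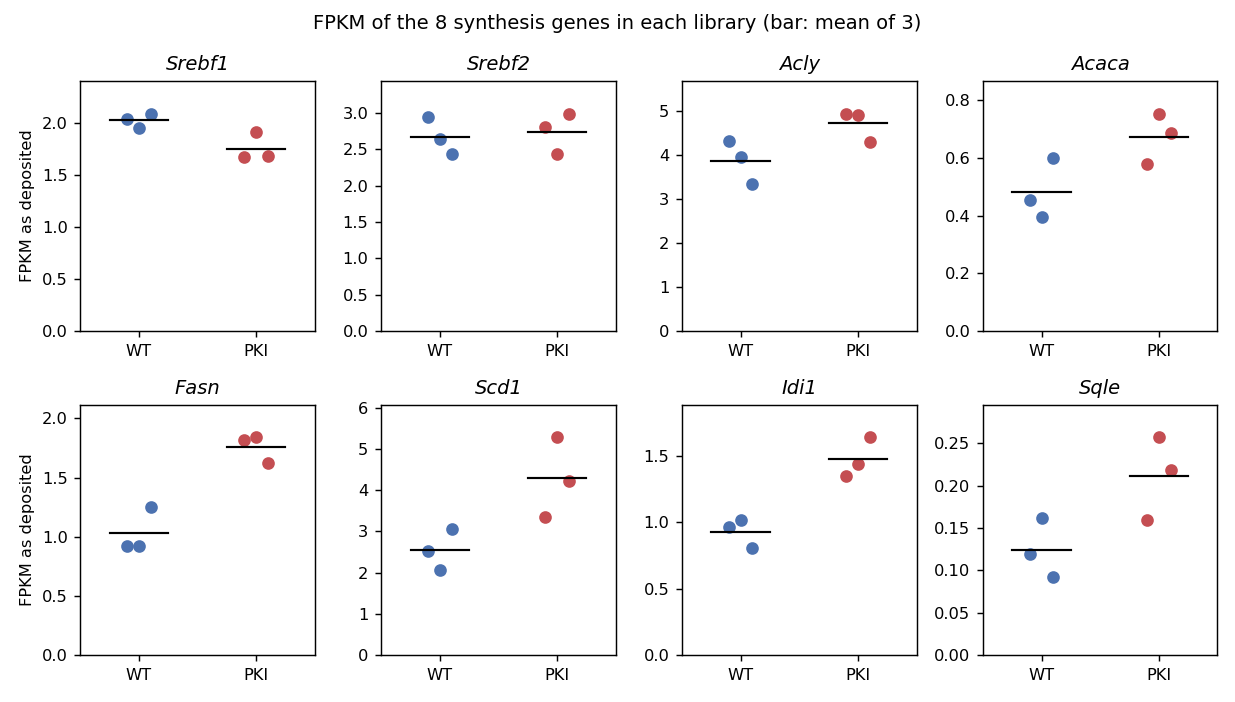
FPKM as deposited (vertical axes, each from 0) of the 8 genes in the 3 WT libraries (blue) and the 3 PKI-labelled libraries (red), with bars at group means. All 3 red points lie above all 3 blue points for Fasn, Scd1 and Idi1, and below them for Srebf1.

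The transcription factor gene Srebf1 (ENSMUSG00000020538, chr11:60199089-60222581, minus strand, GRCm38, the build of all gene positions given here) was at 2.04, 1.95 and 2.09 FPKM in WT and at 1.67, 1.91 and 1.68 in the PKI-labelled libraries. All 3 PKI values were under the lowest WT value, by a small margin for PKI replicate 2; 4.53% of all tested genes were arranged so as deposited and 20.7% after scaling. With a log2 change of −0.14 (SE 0.07, 95% interval −0.30 to 0.03), Srebf1 was not called as deposited (limma, adjusted p = 0.158). After scaling the values were 2.23, 2.17 and 2.34 against 1.51, 1.70 and 1.54, the log2 change was −0.33 (SE 0.07), and Srebf1 was called lower (limma, adjusted p = 0.0184). Leaving out WT replicate 3 (limma, adjusted p = 0.0711), PKI replicate 1 (0.0643) or PKI replicate 3 (0.0702) ended that call, with the log2 change between −0.31 and −0.36 whichever library was left out. The exact two-sided permutation test of the 6 FPKM values gave p = 0.1 on both scales, the smallest that the 20 arrangements of 3 against 3 allow. An exon of Srebf1 overlaps the opposite-strand gene Rai1 (0.521 to 1.54 FPKM), and the library kit does not mark strand, so reads in the shared stretch cannot be assigned to one of the pair.

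Srebf2 (ENSMUSG00000022463, chr15:82147181-82205379, plus strand) encodes the regulator of sterol synthesis. Its WT values were 2.94, 2.64 and 2.44 FPKM and those of the PKI-labelled libraries 2.80, 2.44 and 2.99, so the groups overlapped. The log2 change was 0.03 as deposited (SE 0.09, 95% interval −0.18 to 0.23, limma, adjusted p = 0.818). After scaling it turned to −0.19 (95% interval −0.40 to 0.02, limma, adjusted p = 0.191). The scaled values were 3.22, 2.94 and 2.74 against 2.52, 2.17 and 2.74. Every scaled PKI value was below every WT value, at the closest by less than the digits printed, as for 20.7% of all tested genes. The exact permutation test of the scaled values gave p = 0.1. The interval as deposited leaves room for changes of either sign. The ratio of Srebf1 to Srebf2 within a library, which no scaling touches, was 0.763 ± 0.0839 in WT and 0.648 ± 0.119 in the PKI-labelled libraries (SD, n = 3 each), and the groups overlapped.

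Because SREBP binds short elements near transcription starts, often beside a CCAAT box or a GC box, the 250 bases upstream of RefSeq starts (GRCm38.p6) were searched on both strands. Windows were given for 6 of the 8 genes, 3 of them for Srebf1, and none for Scd1 and Sqle. The core TCACNCCAC of the sterol regulatory element was in none of the members' windows and in 1.05% of all 32851 windows, and the E-box CACGTG was in none against 6.02%. The direct repeat with a spacer of DR4 type, an element of the sterol-sensing LXR receptors, was in none against 0.0152%. The shorter string ATCACC, searched after the windows had been seen, was in those of Fasn and Srebf2 and in 8.48% of all windows. The box CCAAT was in windows of Fasn, Srebf1, Srebf2 and Idi1 (33.8% of all windows) and the GC box GGGCGG in windows of Acly, Srebf1, Srebf2 and Idi1 (32.7%). The window given for Acaca lies 65766 bases inside the GENCODE gene and held none of these strings. The RefSeq starts of Idi1 and Srebf2 lie 105 and 88 bases inside their GENCODE genes. The matches of Idi1, and the GC boxes of Srebf2 at 79, 52 and 34 bases upstream of its RefSeq start, therefore lie inside these genes. The 4 stretches below show how these strings are spaced in both regulators and in 2 fatty acid genes, with matches to the short string and to the CCAAT and GC boxes, on either strand, in capitals and each stretch 5′ to 3′ on the strand of its gene. The Srebf1 stretch ends at the base before the innermost of its 3 RefSeq starts, which lies 12110 bases inside the GENCODE gene. Each stretch is a chosen part of its window and leaves out other matches. Among those left out are the GC boxes of the Srebf2 window, at 211, 79, 52 and 34 bases upstream.
Fasn (chr11:120824598-120824682, minus strand): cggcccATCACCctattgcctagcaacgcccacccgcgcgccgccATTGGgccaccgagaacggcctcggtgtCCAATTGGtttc
Acly (chr11:100528061-100528120, minus strand): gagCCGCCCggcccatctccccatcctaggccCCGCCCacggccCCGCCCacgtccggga
Srebf1 (chr11:60210472-60210546, minus strand): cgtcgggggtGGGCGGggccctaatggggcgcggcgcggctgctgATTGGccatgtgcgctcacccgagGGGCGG
Srebf2 (chr15:82147094-82147148, plus strand): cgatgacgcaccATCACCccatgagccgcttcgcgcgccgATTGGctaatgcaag
These matches describe letters in a window; binding was not measured in these samples.

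ATP citrate lyase is the first enzyme of the fatty acid route. Its gene Acly (ENSMUSG00000020917, chr11:100476353-100528000, minus strand) had the highest mean of the 8 in both groups. Acly was at 4.32, 3.96 and 3.34 FPKM in WT and at 4.95, 4.92 and 4.31 in the PKI-labelled libraries, so the lowest PKI value fell just under the highest WT value. The log2 change of 0.24 (SE 0.10, 95% interval 0.01 to 0.46) was close to the median of all tested genes and was not called (limma, adjusted p = 0.0871). After scaling it was −0.01 (95% interval −0.22 to 0.21, adjusted p = 0.971).

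Acaca (ENSMUSG00000020532, chr11:84129672-84401651, plus strand) encodes acetyl-CoA carboxylase 1, the cytosolic enzyme that makes malonyl-CoA for synthesis. It was at 0.453, 0.394 and 0.598 FPKM in WT and at 0.578, 0.753 and 0.687 in the PKI-labelled libraries, and the groups overlapped at WT replicate 3. Mean FPKM was 1.40-fold higher, 1.13-fold after scaling (exact permutation p = 0.2 and 0.5). In a fit without the minimum level, the log2 change was 0.18 (SE 0.08; limma, adjusted p = 0.220). Its mitochondrial relative Acacb, whose malonyl-CoA restrains fatty acid oxidation, was far more abundant, at 18.6 ± 0.594 FPKM in WT and 14.5 ± 0.233 in the PKI-labelled libraries (SD, n = 3 each), and was called lower (log2 −0.34, SE 0.06; limma, adjusted p = 0.00600). Within a library the ratio of Acacb to Acaca was 40.6, 46.1 and 32.3 in WT and 25.4, 19.5 and 20.8 in the PKI-labelled libraries. Every PKI-labelled library had a lower ratio than every WT library.

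Fatty acid synthase, the multienzyme that builds palmitate, was higher in the PKI-labelled libraries as deposited. Fasn (ENSMUSG00000025153, chr11:120805846-120824547, minus strand) was at 0.925, 0.923 and 1.25 FPKM in WT and at 1.82, 1.84 and 1.62 in the PKI-labelled libraries. Every PKI value lay above every WT value, and WT replicate 3 was the highest of its group. Mean FPKM was 1.70-fold higher, with a log2 change of 0.44 (SE 0.09, 95% interval 0.23 to 0.65; limma, adjusted p = 0.0104), and the call held whichever library was left out (adjusted p 0.0137 to 0.0350). The exact permutation test gave p = 0.1, and 51.3% of all tested genes had every PKI value above every WT value. After scaling the values were 1.01, 1.03 and 1.41 against 1.64, 1.63 and 1.48, still without overlap, which 16.6% of all tested genes then showed. The scaled log2 change was 0.27 (SE 0.09, 95% interval 0.05 to 0.49), and it was not called (limma, adjusted p = 0.0912).

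Scd1 (ENSMUSG00000037071, chr19:44394455-44407879, minus strand) encodes the stearoyl-CoA desaturase that makes oleate. Its values were 2.53, 2.07 and 3.05 FPKM in WT and 3.35, 5.28 and 4.23 in the PKI-labelled libraries. As deposited the groups did not overlap, with every PKI value above every WT value, as for 51.3% of all tested genes. The PKI libraries were spread more widely than the WT libraries. After scaling the groups overlapped, with PKI replicate 1 at 3.02 and WT replicate 3 at 3.42 (exact permutation p = 0.2). Mean FPKM was 1.68-fold higher and the log2 change 0.57 (SE 0.16, 95% interval 0.20 to 0.93; limma, adjusted p = 0.0265), and the exact permutation test gave p = 0.1. The call did not hold when WT replicate 1 (adjusted p = 0.0571), WT replicate 2 (0.0759), PKI replicate 2 (0.0626) or PKI replicate 3 (0.0675) was left out, without the minimum level (0.0797) and after scaling (log2 0.34, adjusted p = 0.183). Scd2, a close relative, was also called higher (2.75 ± 0.455 and 4.03 ± 0.504 FPKM, SD, n = 3 each; log2 0.43, SE 0.11; limma, adjusted p = 0.0250; 0.269 after scaling). Scd3 did not exceed 0.0686 FPKM in any library. How the authors divided reads between these similar genes is unknown, so the level of each Scd gene is uncertain.

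Scd1 is strongly expressed in fat, and the adipocyte markers differed between libraries. Adiponectin mRNA (Adipoq) was at 0.323, 0.127 and 0.586 FPKM in WT and at 0.0741, 1.16 and 0.415 in the PKI-labelled libraries. Perilipin mRNA (Plin1) was at 0.0462, 0.0108 and 0.224 and at 0.0109, 0.330 and 0.146. Complement factor D mRNA (Cfd) was at 1.13, 0.0545 and 0.822 and at 1.08, 3.65 and 2.40, and Car3 at 1.09 ± 0.711 and 2.19 ± 1.67 (SD, n = 3 each). The groups overlapped for each of these 4 markers, and Cfd and Car3, which were tested, were not called (limma, adjusted p = 0.0560 and 0.282). Within each group the libraries fell in the same order for Scd1 as for 3 of the 8 markers, Adipoq, Plin1 and Car3, a pattern picked out after the values were seen, with WT replicate 2 and PKI replicate 1 lowest and WT replicate 3 and PKI replicate 2 highest. For Cfd, Cidea, Cidec and Retn the order differed from that of Scd1 in at least 1 group. Fasn fell in the Adipoq order in WT, where replicates 1 and 2 were nearly equal, and not in the PKI-labelled libraries, where replicate 3 was lowest. The 8 adipocyte markers summed to 8.91 to 13.4 FPKM in WT and 17.1 to 23.5 in the PKI-labelled libraries, most of it Cidea, which was called higher (limma, adjusted p = 0.00351). Leptin mRNA was listed at 0 in the 3 WT libraries and did not exceed 0.0350 FPKM in the PKI-labelled libraries. The part of fat tissue in the Scd1 difference was not tested. In bulk tissue, more cells of a type and more RNA per cell cannot be told apart.

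**Figure D2:**
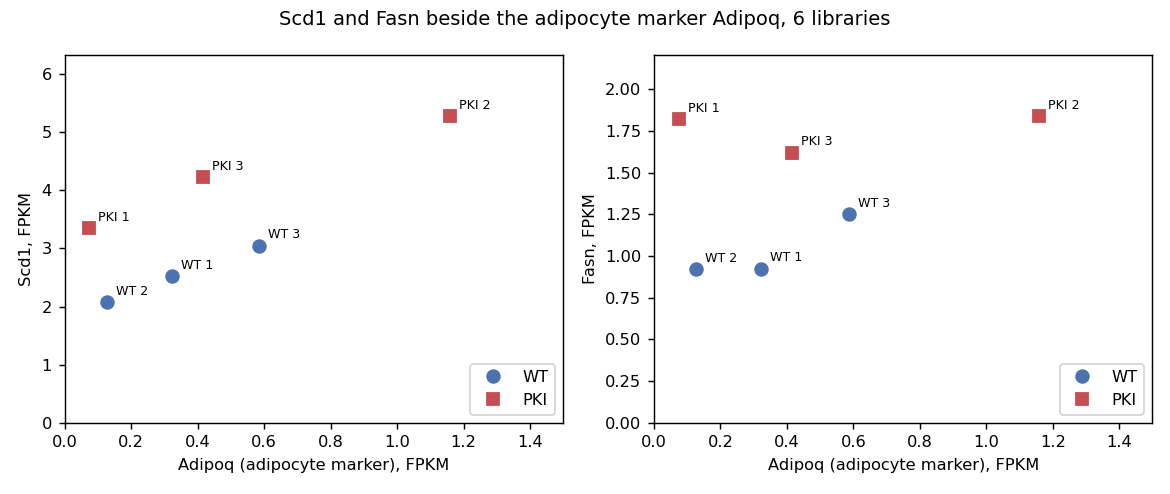
FPKM of Scd1 (left) and Fasn (right) on the vertical axes against FPKM of the adipocyte marker Adipoq on the horizontal axes, 1 point per library, WT as blue circles and the PKI-labelled libraries as red squares. Scd1 is ordered as Adipoq within each group, and the groups overlap in Adipoq but not in the deposited FPKM of either gene.

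Isopentenyl-diphosphate isomerase, which interconverts the isoprenoid building blocks, was the cholesterol enzyme called higher as deposited. Idi1 (ENSMUSG00000058258, chr13:8885501-8892451, plus strand) was at 0.963, 1.02 and 0.808 FPKM in WT and at 1.35, 1.44 and 1.64 in the PKI-labelled libraries, without overlap. As deposited, 51.3% of all tested genes had every PKI value above every WT value. The WT mean of Idi1, 0.930 FPKM, was under the minimum for testing. It passed that minimum only through the PKI-labelled libraries, so its entry into the test was not independent of the difference. Mean FPKM was 1.59-fold higher and the log2 change 0.36 (SE 0.08, 95% interval 0.17 to 0.55; limma, adjusted p = 0.0153; 0.0451 without the minimum level). Idi1 was no longer called when WT replicate 3 (adjusted p = 0.0535) or PKI replicate 3 (0.0507) was left out and after scaling (log2 0.20, adjusted p = 0.152). The paralogue Idi2 was listed at 0 in all 6 libraries.

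Sqle (ENSMUSG00000022351, chr15:59315077-59331192, plus strand) encodes squalene epoxidase, which acts late in the route, on squalene. Its values were 0.119, 0.162 and 0.0918 FPKM in WT and 0.159, 0.257 and 0.218 in the PKI-labelled libraries, overlapping at WT replicate 2 and PKI replicate 1; among genes with a mean of 0.1 to 1 FPKM, 28.6% had every PKI value above every WT value, and Sqle and Acaca did not. Mean FPKM was 1.70-fold higher, as for Fasn, but at this level the exact permutation test gave p = 0.2, and the fit without the minimum level gave a log2 change of 0.11 (SE 0.04; limma, adjusted p = 0.164).

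**Figure D3:**
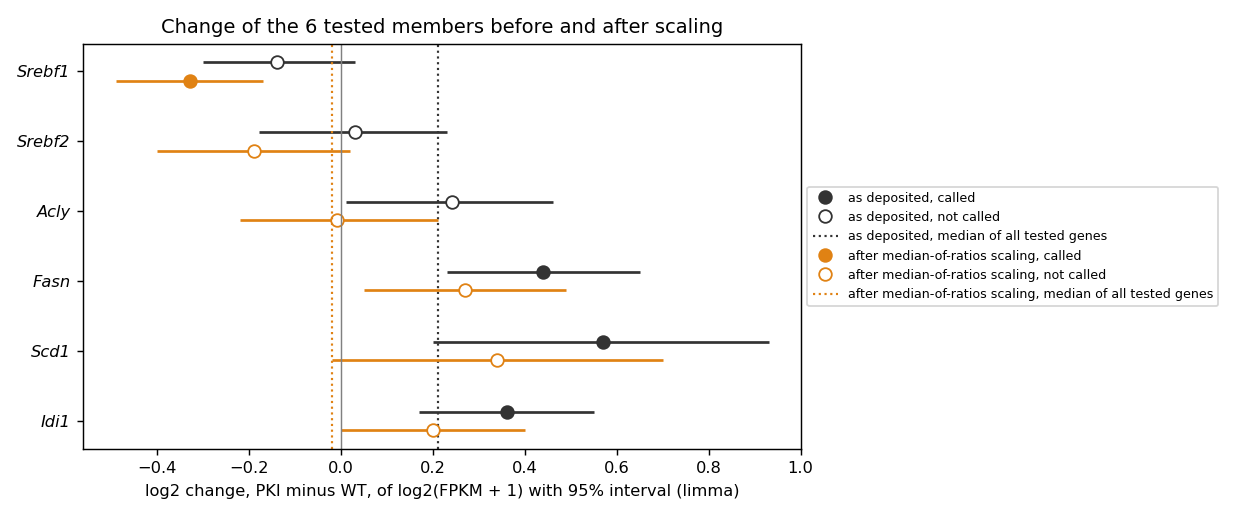
Log2 change, PKI minus WT, of log2(FPKM + 1) with its 95% interval from limma (horizontal axis) for the 6 tested members, as deposited (black) and after scaling (orange); filled points were called. Dotted lines mark the medians of all tested genes, 0.21 and −0.02, and each member lies lower after scaling than as deposited.

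The order of levels differed between the groups in 2 places. In WT the order by mean FPKM was Acly, Srebf2, Scd1, Srebf1, Fasn, Idi1, Acaca and Sqle, and in the PKI-labelled libraries it was Acly, Scd1, Srebf2, Fasn, Srebf1, Idi1, Acaca and Sqle. Scd1 thus passed Srebf2, and Fasn, at 1.76 FPKM, stood level with Srebf1, at 1.75. Of the neighbours in WT, Srebf2 with Scd1, Scd1 with Srebf1 and Fasn with Idi1 had overlapping libraries. In the PKI-labelled libraries the overlapping neighbours were Acly with Scd1 and Fasn with Srebf1, and each other gene lay above the next in every library.

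Ratios between members within a library do not depend on the scaling, and the pairs given here were chosen after their values were seen, so they are descriptions without a test. Fasn stood at 0.453, 0.474 and 0.600 of Srebf1 in WT and at 1.09, 0.960 and 0.962 in the PKI-labelled libraries. Scd1 stood at 1.24, 1.06 and 1.46 times Srebf1 in WT and at 2.0, 2.76 and 2.52 times in the PKI-labelled libraries. Idi1 stood at 0.327, 0.386 and 0.331 of Srebf2 and at 0.483, 0.591 and 0.548. In these 3 pairs the enzyme gene was higher relative to its best known regulator in every PKI-labelled library than in any WT library. For the 2 pairs with Srebf1 this was fixed by the deposited values, in which Srebf1 lay below and both enzyme genes above WT in every PKI-labelled library. Against Srebf1 it would hold for any gene with every PKI value above every WT value, which was 51.3% of all tested genes as deposited. For Idi1 with Srebf2 it was fixed by the scaled values, where every PKI value lay above WT for Idi1 and below WT for Srebf2. Against Srebf2 it would hold for any gene with every scaled PKI value above every scaled WT value, 16.6% of all tested genes. Fasn relative to Acly was 0.274 ± 0.0879 in WT and 0.372 ± 0.00388 in the PKI-labelled libraries (SD, n = 3 each), and the groups overlapped.

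**Figure D4:**
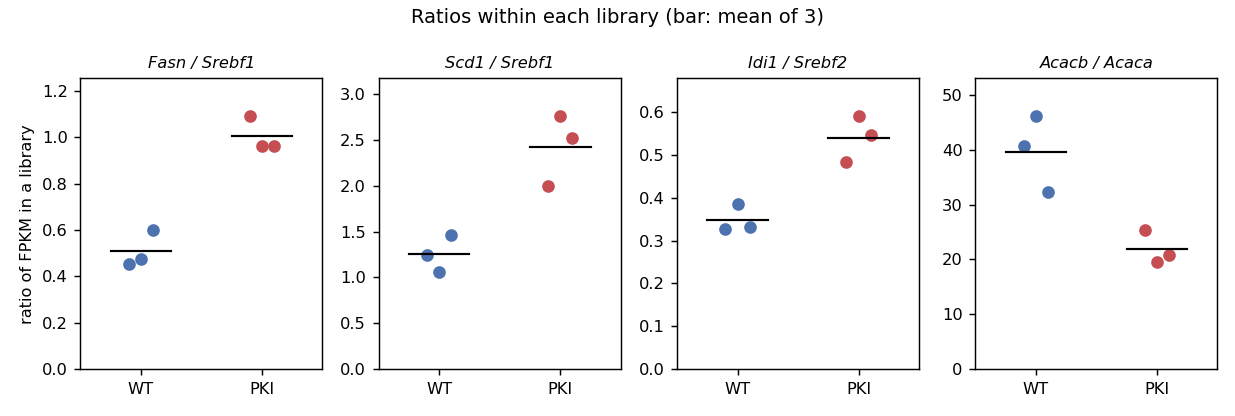
Ratio of FPKM of 2 genes in each library (vertical axes from 0) for Fasn to Srebf1, Scd1 to Srebf1, Idi1 to Srebf2 and Acacb to Acaca, in WT (blue) and the PKI-labelled libraries (red), with bars at group means. The groups do not overlap in any of the 4 ratios. For the first 2 this follows from the deposited values of both genes, and for Idi1 to Srebf2 from their scaled values. The first 3 are higher and the last is lower in the PKI-labelled libraries.

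Among 20 other genes of fatty acid synthesis, elongation and desaturation, 18 were tested, of which 9 were called higher and 3 lower, against 36.4% and 2.96% of all tested genes; their median log2 change was 0.28 against 0.21. On the scaled values 2 were higher, Fads1 and Elovl1, and 3 lower, against 7.82% and 9.18%, with a median of 0.08 against −0.02. Fads1, the delta-5 desaturase of polyunsaturated fatty acids, rose from 2.83 ± 0.0368 to 4.85 ± 0.390 FPKM (log2 0.61, SE 0.07; limma, adjusted p = 0.00176; 0.0117 after scaling). Elovl1, an elongase of very long chains, rose from 2.35 ± 0.0342 to 4.20 ± 0.577 (adjusted p = 0.00346; 0.0298 after scaling). Elovl5, an elongase of polyunsaturated chains, rose 1.47-fold (adjusted p = 0.00640; 0.132 after scaling), and Hsd17b12, the ketoacyl reductase of the elongation cycle, also rose 1.47-fold (adjusted p = 0.00995; 0.172 after scaling). The other genes called higher as deposited were Fads2, Hacd3, Scd2, Slc25a1 and Acss2.

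The 3 genes called lower were the carboxylase gene Acacb, Mlycd, whose product breaks down malonyl-CoA, and Tecr, the last reductase of the elongation cycle. All 3 were called lower on both scales. Mlycd fell from 17.2 ± 1.75 to 13.5 ± 1.42 FPKM (limma, adjusted p = 0.0385) and Tecr from 67.1 ± 1.51 to 54.4 ± 1.43 (SD, n = 3 each; adjusted p = 0.00678). Genes of an enzyme that makes malonyl-CoA and of one that removes it were thus both lower, and both were more abundant per length than Acaca and Fasn in every library.

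Among 20 other genes of cholesterol synthesis, 14 were tested and 0 were called in either direction by limma, against 36.4% higher and 2.96% lower among all tested genes, with a median log2 change of 0.08 against 0.21; 2 of the 14, Fdft1 and Nsdhl, had an unadjusted p under 0.05. Fdft1, which encodes squalene synthase, had the smallest p, at 5.70 ± 1.30 FPKM in WT and 4.06 ± 0.380 in the PKI-labelled libraries (adjusted p = 0.0751), and was called lower after scaling (log2 −0.63, adjusted p = 0.0285). The next by p were Nsdhl (log2 0.26), Hmgcs1, the HMG-CoA synthase (0.18), Ebp (0.27), Acat2 (0.17) and Cyp51 (0.15), none of them called. Among the 15 tested genes of the cholesterol route, Idi1 included, Idi1 was the gene called as deposited. Since Idi1 passed the minimum for testing only through the PKI-labelled libraries, this comparison was not independent of its difference. Genes of the route under the minimum were not tested.

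**Figure D5:**
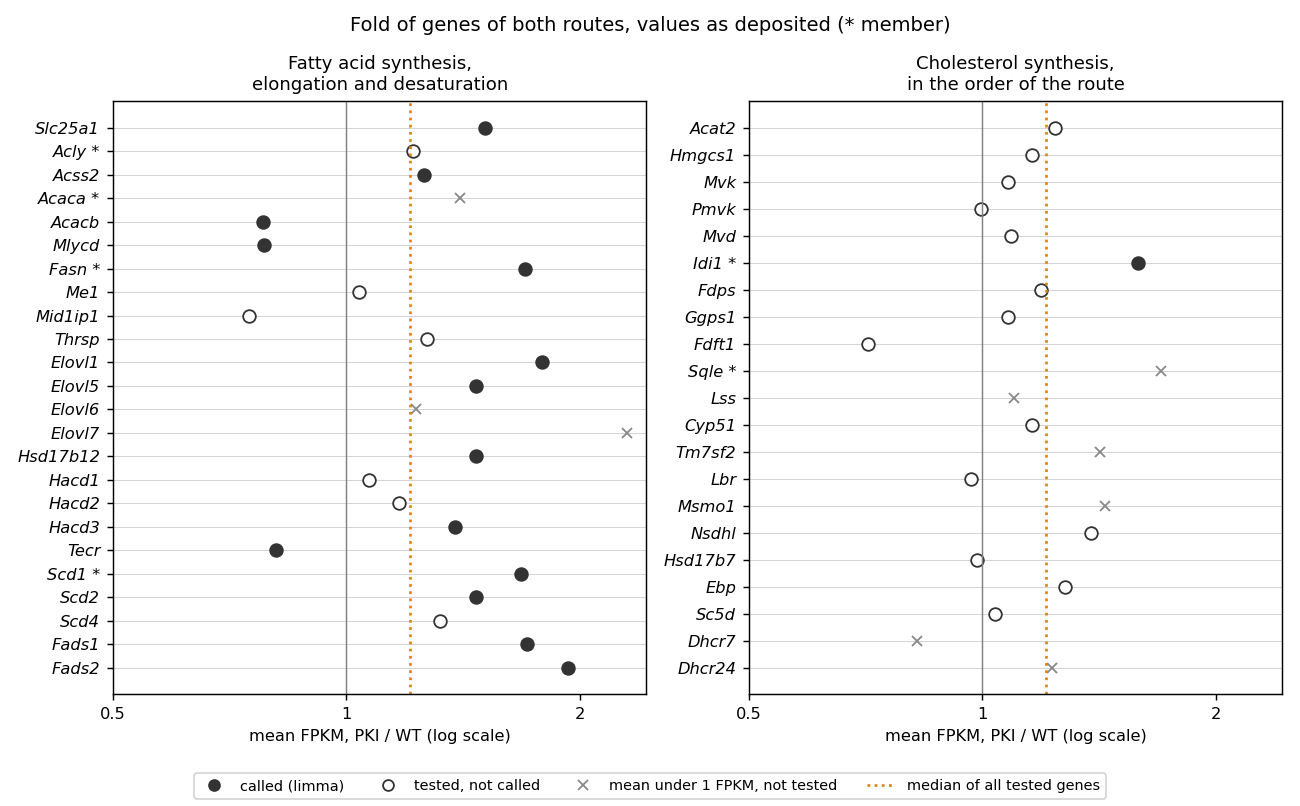
Mean FPKM in the PKI-labelled libraries divided by that in WT (horizontal axis, log scale) for genes of fatty acid synthesis, elongation and desaturation (left) and of cholesterol synthesis in route order (right); filled circles were called by limma as deposited, crosses were not tested, and stars mark members. The dotted line is the median fold of all tested genes, 1.21. Among the tested genes of the right panel Idi1 is the gene called, and it reached the test only through the PKI-labelled libraries.

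Of 12 tested genes among 13 that process or partner the SREBPs, 4 were called higher and 0 lower as deposited, a share near the 36.4% of all tested genes called higher. Their median log2 change of 0.23 was also near the 0.21 of all tested genes, and after scaling 0 were higher and 1 lower, Usf2. Insig2, which retains SREBP in the endoplasmic reticulum, rose from 7.56 ± 0.479 to 10.1 ± 0.107 FPKM (log2 0.38, SE 0.07; limma, adjusted p = 0.00639; 0.325 after scaling). Usf1, an E-box factor of lipogenic promoters, Prkaa1, a catalytic subunit of the AMP-activated kinase, and Mbtps1, the first protease that cuts SREBP, were at log2 0.40, 0.42 and 0.25 and were also called as deposited. The LXR receptor genes Nr1h2 and Nr1h3 were at log2 0.23 and 0.28 and were not called (adjusted p = 0.0546 and 0.0831). Over the 6 libraries, the centred log2 profile of Fasn was nearest to that of Insig2 among 52 tested pathway genes, with a root mean square difference of 0.0537. That of Idi1 was nearest to Hacd3 (0.0720), Srebf1 to Tecr (0.0929), Srebf2 to Mlxipl (0.0790), Acly to Mylip (0.0632), Acaca to Scap (0.0651), Sqle to Prkaa2 (0.0685) and Scd1 to Prkaa1 (0.147). The least like of these pairs was Scd1 with Prkaa1. Since log2(FPKM + 1) compresses low values, a small difference need not mean a like fold: mean FPKM was 1.70-fold higher for Sqle and 1.04-fold for Prkaa2.

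Of 13 genes of cholesterol uptake, storage and export, 8 were tested, of which 5 were called higher and 0 lower, against 36.4% and 2.96% of all tested genes, with a median log2 change of 0.45 against 0.21. After scaling 2 were higher, Lrp1 and Lipa, against 7.82% of all tested genes, with a median of 0.22 against −0.02. Lrp1, a lipoprotein receptor, rose from 2.88 ± 0.343 to 7.55 ± 0.812 FPKM (log2 1.14, SE 0.10; limma, adjusted p = 0.000734; 0.00148 after scaling). Lipa, the lysosomal acid lipase, rose 1.80-fold and Npc2, which carries cholesterol out of lysosomes, 1.48-fold, and the exporter gene Abca1 1.53-fold (adjusted p = 0.00127, 0.00421 and 0.00890). Among 9 macrophage markers, 8 were called higher as deposited and 7 after scaling, against 36.4% and 7.82% of all tested genes. The summed level of the 9 was 71.0 to 110 FPKM in WT and 213 to 231 in the PKI-labelled libraries. Fibroblast markers summed to 109 to 162 and to 298 to 346 FPKM, with 7 of 8 called higher as deposited and 7 after scaling. Neuron and Schwann cell markers summed to 6.62 to 12.9 and to 16.9 to 27.1 FPKM, and endothelial markers to 118 to 123 and to 125 to 141. Of 7 endothelial markers, 2 were called higher as deposited, and 0 higher and 1 lower after scaling. Of 5 atrial markers, Nppa was called higher (261 ± 69.0 FPKM in WT, 1088 ± 413 in the PKI-labelled libraries, SD, n = 3 each; limma, adjusted p = 0.00397) and made up most of their sum of 270 to 478 and 666 to 1497 FPKM. The other 4, Myl7, Myl4, Sln and Bmp10, had PKI means of 0.501, 0.475, 0.336 and 0.419 of the WT means, overlapped between groups and were not called. Red blood cell markers summed to 380 to 538 and to 274 to 338. All these sums are of FPKM as deposited, for which the median fold of all tested genes was 1.21. No marker in these lists was at 0 in all 6 libraries, and the part of these cell types in the lipid gene differences was not tested.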

How the data were processed

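RNA of 6 left ventricular samples was sequenced from TruSeq RNA libraries, and the authors deposited 1 FPKM value per gene and library, with no counts. The submitters' processing notes name CASAVA, Bowtie 0.12.2 and mm9; how FPKM was computed is not given in the sources used here. Absolute depth is unknown, which limits precision for genes below 1 FPKM. Gene positions are from GENCODE M21 (GRCm38), since 52403 identifiers (99.72%) matched it, and promoter windows from RefSeq (GRCm38.p6).

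From the deposited FPKM, log2(FPKM + 1) was fitted with limma 3.58.1 (R 4.3.3) with a variance trend, on genes whose mean reached 1 FPKM, and p-values were adjusted by Benjamini-Hochberg over all of them. Fold changes on this log2 scale understate the change of low genes; folds are ratios of mean FPKM. Intervals are 95%. The scaled fit divided FPKM by median-of-ratios size factors first. The fit was tested on simulated data. Exact two-sided permutation tests used single values. Same-numbered libraries correlated at −0.104, 0.00115 and 0.0529 in their deviations from the group means, so the numbers were not taken as pairs.

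The members and gene lists were chosen with earlier results of these data known. Genes named were the members, Ppargc1a, up to 6 tested genes of each list with the smallest p, and for each member the nearest pathway gene by profile; Scd2, Scd3, Idi2, Rai1, Mlycd, Usf2, the marker genes and the other called genes of the lists were added after their values were seen. Alternatives covered scaling, pseudocount, low-value filter, variance trend, replicate block and each library left out. Values of 2 untested list genes are not reported here.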

Additional observations from a re-analysis of the deposited data

How the results depend on the processing

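The scaling decided most calls. Of 9907 tested genes, 3609 were called higher as deposited and 775 after median-of-ratios scaling. After scaling to the total without mitochondrial genes and copies 1019 were called higher, and after quantile normalisation 753. Genes called lower numbered 293, 909, 603 and 762 in the same order. At a minimum mean of 5 FPKM only 3935 genes were tested, of which 1739 were called higher and 186 lower. Leaving out 1 library gave 2179 to 3162 higher and 165 to 263 lower, fewest without WT replicate 3. Members called higher went from 3 to 0 under each of the 3 scalings and to 1 to 3 with 1 library left out (1 without PKI replicate 3); members called lower went from 0 to 1 under each scaling. At 5 FPKM no member was tested. Of 52 tested genes in the 4 pathway lists, 18 were higher as deposited. After median-of-ratios scaling 4 were higher, without the mitochondrial total 6, and after quantile normalisation 4. Without a filter 11 of 66 tested genes were higher, and at 5 FPKM 5 of 16. Of the 52, 3 were lower as deposited and 5 after median-of-ratios scaling or quantile normalisation.

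The sign of Acly turned to −0.01 after median-of-ratios scaling. Srebf2 turned to −0.19, −0.13 and −0.20 under the 3 scalings and ran from −0.02 to 0.09 with 1 library left out. Pseudocounts of 0.1 and 0.5 and a fit without the variance trend left the count of members called higher at 3. With the replicate block, 2625 genes were higher and 224 lower, and 2 members were higher, since Scd1 was at an adjusted p of 0.0521 (limma).

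The following alternatives were added after seeing the data. After scaling, leaving out 1 library gave 419 to 764 genes higher, 437 to 849 lower, 0 to 1 members lower and 3 to 4 pathway genes lower against 5, and Acly ran from −0.08 to 0.05. Replicate block and scaling together gave 552 genes lower, 0 members lower and 3 pathway genes lower; no filter and scaling gave 597 genes lower and 3 pathway genes lower. Fewer samples, more tests or, with the replicate block, more model terms enter these last settings. Otherwise the cause was not tested.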
